A study of Bos taurus with 20 samples.

Results

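The ligands, receptors and inhibitors of transforming growth factor beta (TGF-beta) and activin were followed in bovine endometrium, the lining of the uterus, at 2 intervals after calving. The 9 genes are TGFB1, TGFB2, TGFB3, INHBA, INHBB, MSTN, FST, TGFBR1 and TGFBR2. They were taken by gene name from the noncontrol probes of the array, which gave 16 of 43653 probes and 9 of 25400 genes. The rule uses gene names and no measured value. The tissue came from 10 female cows (Bos taurus), each biopsied in an early period (day 42 to 86 after parturition, mean 60.1 ± 13.3 SD, n = 10) and again in a late period (day 343 to 436, mean 388.9 ± 27.5 SD, n = 10). Both biopsies were taken on day 7 after oestrus, with forceps, in the horn ipsilateral to the corpus luteum. No treatment was given in the labels, and breed, age and parity are not stated there. The late biopsy always followed the early one, so interval after calving, age and order of sampling cannot be told apart. The question put by the design is how endometrial expression differs between these intervals.

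TGF-beta and activin are secreted dimers of one growth factor superfamily. TGF-beta is released in a latent form, is activated outside the cell, and binds the type II receptor TGFBR2, which then recruits and phosphorylates the type I receptor TGFBR1. Activins, dimers of the beta subunits encoded by INHBA and INHBB, and myostatin, encoded by MSTN, signal through activin receptors, and both branches phosphorylate SMAD2 and SMAD3. Follistatin, encoded by FST, binds activins and myostatin and blocks them. In the uterus the pathway is known for roles in tissue repair, matrix production, immune regulation and decidual differentiation.

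The array probes are 60-base oligonucleotides, and the following are shown because the results below turn on them or because they set probes of 1 gene apart. Coordinates are those of the array's annotation on HGSC Btau_3.1, read 5′ to 3′ on the stated strand. Exon and intron annotation of that build was not used here. The FST probe lies at chr20:27297177-27297236 (minus strand), the TGFB1 probe at chr18:50176062-50176825 (minus), the second INHBA probe at chr4:82136398-82136456 (plus) and the second TGFBR2 probe at chr22:5119194-5119253 (plus). The dimmest TGFB3 probe lies at chr10:89833030-89835687 (minus).
FST: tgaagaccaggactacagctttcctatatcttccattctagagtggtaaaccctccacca
TGFB1: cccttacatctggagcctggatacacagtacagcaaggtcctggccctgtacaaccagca
INHBA, second probe: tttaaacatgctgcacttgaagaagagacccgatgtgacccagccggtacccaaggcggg
TGFBR2, second probe: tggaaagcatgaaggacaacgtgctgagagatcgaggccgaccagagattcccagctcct
TGFB3, dimmest probe: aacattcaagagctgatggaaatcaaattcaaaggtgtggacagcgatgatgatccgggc
The TGFB1 probe and the dimmest TGFB3 probe match the genome over 764 and 2658 bases, far more than their own length, so each joins separate stretches of the genome. The probe that represents TGFB3, at chr10:89827728-89827787 (minus), ends close to the hexamer AATAAA, the usual polyadenylation signal, shown in capitals in a 30-base stretch of it.
TGFB3, representing probe: ctggaagattgtttctaaacAATAAAagcc
Of the 16 member probes, 1 held AATAAA on the probe's own strand, against 9.35% of all 43653 probes. The longest run of bases shared by probes of different members was 9, and the GC content of the member probes lay between 35% and 55%, around the median of 45% over all probes.

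Signal levels are log2 values of the processed fluorescence relative to the 75th percentile of the array, so that 0 is the level of a probe brighter than 75% of the spots. On each of the 20 arrays, 71.8% to 80.2% of 43803 noncontrol spots exceeded background clearly (the scanner's call "well above background"), and 0 spots were saturated; the number of arrays limits the precision. All 8 epithelial and all 9 stromal fibroblast markers were well above background on every array, as the tissue label states. Of 12 macrophage markers 4 fell between the periods (VSIG4, CD68, MSR1 and TYROBP), as did 1 of 11 T and NK cell markers tested (NKG7), beside 0.777% of all genes. The log2 of the macrophage markers' summed linear levels was 4.13 to 6.18 early (median 5.22) and 3.78 to 6.05 late (median 4.25). For the T and NK cell markers it was 2.95 to 3.61 early and 2.88 to 3.57 late. Such sums, also given below, weigh the brightest markers most. For 9 of 9 stromal markers the estimate was below 0, against 47.1% of all genes, with none past the threshold. Their summed level was 8.17 to 8.62 early and 7.9 to 8.36 late. Epithelial markers went the other way, with 1 of 8 estimates below 0, a median change of 0.30 and 0 past the threshold. In these bulk biopsies fewer cells of a type and less RNA per cell cannot be told apart, and the part of the cell mixture in the member values was not tested. One array stood apart: on the early array of cow 4, 12.7% of 19305 genes lay beyond a gap from the other early arrays that passes Dixon's 95% criterion, against 0.0932% to 3.34% on the other early arrays. Over all early arrays 20.7% of genes had 1 array apart in this way, and over all late arrays 9.37%. Member values that move with it are given with and without that cow. Slides carried 4 arrays each, slides 1 and 2 early and slides 4 and 5 late arrays, and slide 3 alone both.

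Late against early within a cow, 0 of the 7 members that could be tested passed the threshold (limma, Benjamini-Hochberg adjusted p under 0.05 over 19445 genes), against 1.31% of all genes tested. All 7 estimates were below 0, against 47.1% of all genes, with a median log2 change of -0.38 beside 0.02 for all genes. At an unadjusted p under 0.05 there were 2 of 7 members, TGFBR2 and TGFBR1, against 22.6% of all genes (10.2% in the lower direction). Both INHBB probes and both MSTN probes were too dim to enter the test and are described by their array values. Without cow 4 the count was again 0 of 7, against 0.782% of all genes, and 2 members, TGFBR2 and FST, were at an unadjusted p under 0.05 beside 21.4% of all genes (9.62% lower). The estimate of INHBA was then above 0, at 0.23. Without cows 4 and 9, TGFB1, TGFB2 and TGFB3 were at -0.03, -0.02 and -0.04 and INHBA at 0.45. In that fit FST, TGFBR1 and TGFBR2 were at -0.31, -0.38 and -0.29. Cows 4 and 9 had the largest falls of TGFB1, TGFB3 and INHBA, and cow 9 that of TGFB2, so leaving them out must raise these estimates. The size of the lower ligand estimates thus depends on these cows. With all cows the median change was -0.25 for TGFB2 and -0.26 for TGFB3, each lower late in 7 of 10 cows. It was -0.07 for TGFB1 (lower in 6) and -0.02 for INHBA (lower in 5).

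**Figure D1:**
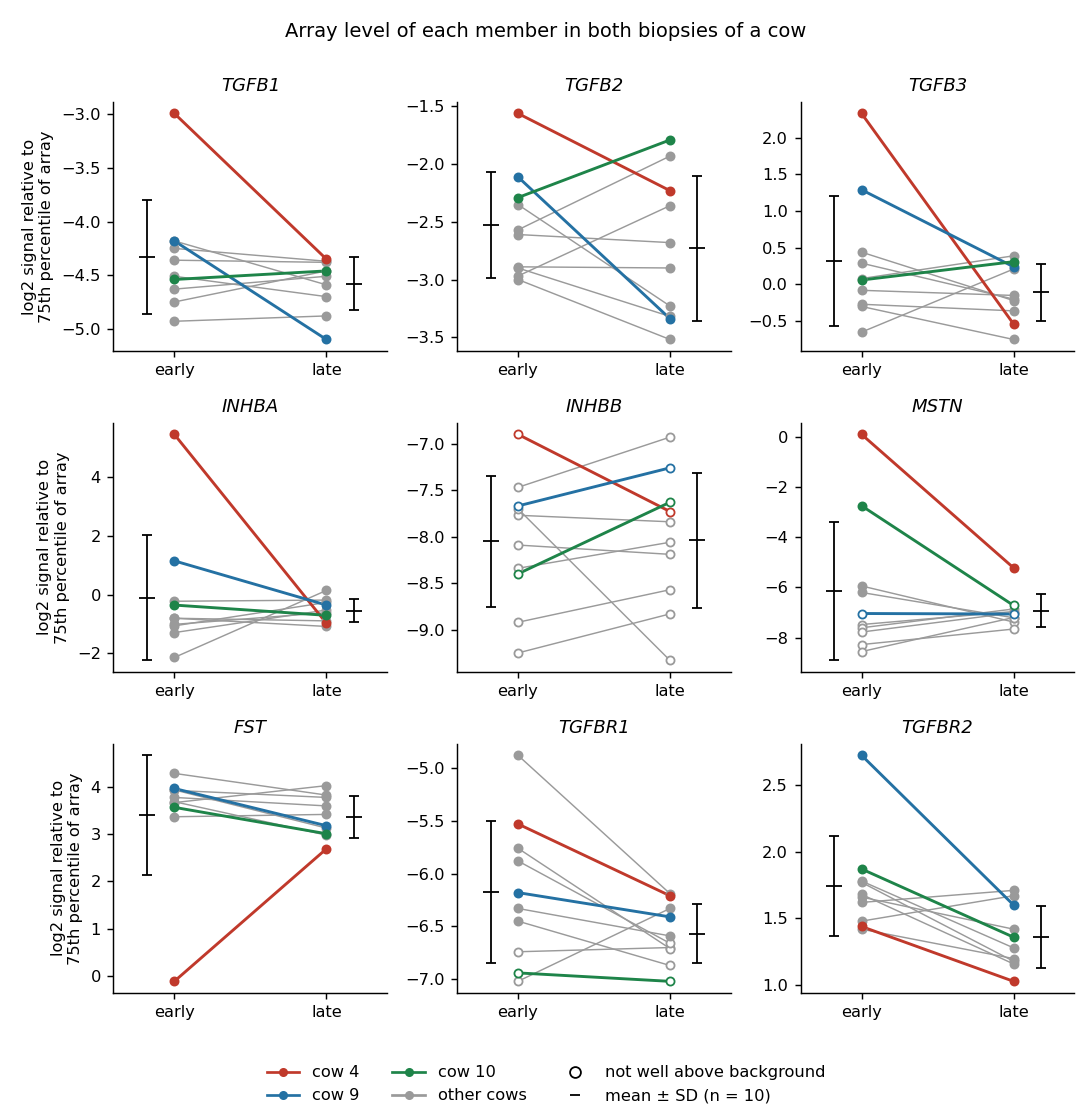
Log2 signal relative to the 75th percentile of the array (vertical axis) of the representing probe of each of the 9 genes in the early and late biopsy; lines join the arrays of a cow, open symbols were not well above background, and bars are mean ± SD (n = 10). The early array of cow 4 is the highest early array for INHBA (5.47) and the lowest for FST (-0.12), while TGFBR2 is lower late in 8 of 10 cows.

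TGFB1, the isoform best known for immune regulation and fibrosis, was at -4.93 to -2.99 early (median -4.44) and at -5.10 to -4.35 late (median -4.49). The early array of cow 4 at -2.99 stood above all others, since the other early arrays ended at -4.18, and the late arrays overlapped the early ones. The change was -0.25 ± 0.15 (SE, n = 10 cows, limma adjusted p = 0.352), lower late in 6 of 10 cows. Without cow 4 it was -0.12 (adjusted p = 0.555).

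TGFB2, an isoform prominent in epithelial and mesenchymal development, was at -3.00 to -1.56 early (median -2.59) and at -3.52 to -1.79 late (median -2.79). The groups overlapped over most of their range and the cows went both ways, from -1.23 in cow 9 to 0.64 in cow 2. The change was -0.21 ± 0.19 (SE, n = 10, limma adjusted p = 0.532), lower late in 7 of 10 cows. It was -0.09 without cow 9 and -0.13 without cow 1.

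TGFB3, an isoform associated with scar-poor repair, was at -0.65 to 2.33 early (median 0.07) and at -0.75 to 0.39 late (median -0.17). The highest early values belonged to cow 4 (2.33) and cow 9 (1.29), and the other 8 early arrays lay within the span of -0.65 to 0.44, close to that of the late arrays. The change was -0.42 ± 0.29 (SE, n = 10, limma adjusted p = 0.397), and without cow 4 it was -0.15 (adjusted p = 0.639). The second TGFB3 probe had -0.64 ± 0.30 (adjusted p = 0.219 in the fit of each probe on its own) with cow 4 highest early again, at -0.92; the mean change of the other 9 cows was -0.36. The dimmest probe, whose sequence joins separate genomic stretches, passed background on 3 arrays of the early and 1 of the late period and was not tested.

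INHBA, which encodes the subunit of activin A, held the widest spread among the members tested. Early it was at -2.15 to 5.47 (median -0.81), and late at -1.09 to 0.14 (median -0.57). The late arrays lay close together, while the early array of cow 4 alone was 6.28 log2 units, or 77.9-fold, above the median of the other 9 early arrays. The next early value was that of cow 9, at 1.15, and the lowest that of cow 6, at -2.15. The change was -0.44 ± 0.66 (SE, n = 10, 95% interval -1.88 to 1.0, limma adjusted p = 0.714), lower late in 5 cows and higher in 5. Without cow 4 the estimate turned to 0.23 (95% interval -0.45 to 0.91, adjusted p = 0.691).

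The second INHBA probe, shown above and starting 10924 bases from the first, gave the same picture for cow 4. It was at 1.36 on the early array of cow 4 and at -3.32 to -2.19 on the other early arrays, 22.8-fold above their median, and at -3.03 to -2.69 on the late arrays. Cow 9 was again the next early array, at -2.19. The late biopsy of cow 4 was at -0.98 with the first probe and -2.90 with the second, inside the span of the other late arrays in both. The mean change of the second probe was -0.32 with all cows and 0.12 without cow 4.

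INHBB, which encodes the subunit of activin B, was not well above background on any of the 20 arrays with either probe. Its values, -9.25 to -6.90 early and -9.33 to -6.93 late with the brighter probe, therefore give no order. MSTN, best known as the inhibitor of muscle growth, passed background on 4 arrays of the early and 2 of the late period with 1 probe and on 3 and 3 with the other. With the first probe the early array of cow 4 was at 0.11 and that of cow 10 at -2.74, while the other 8 early arrays were at -8.56 to -5.94. The second MSTN probe, 1072 bases away, also had cow 4 highest early at -1.39 and cow 10 next at -3.18. Late, cow 4 was again the highest with the first probe, at -5.22, against -7.66 to -6.72 in the other late arrays. MSTN was thus measured in few biopsies, with its highest values in the early ones of cows 4 and 10.

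FST, which encodes the secreted antagonist of activin and myostatin, was at -0.12 to 4.29 early (median 3.74) and at 2.69 to 4.03 late (median 3.30). The early array of cow 4 was the lowest of all 20, with a log2 difference of -3.90 (14.9-fold lower) from the median of the other early arrays, which lay between 3.37 and 4.29. The late array of cow 4, at 2.69, was the lowest of the late arrays, the next being at 2.98. Over all cows the change was -0.05 ± 0.31 (SE, n = 10, 95% interval -0.72 to 0.62, limma adjusted p = 0.943). Without cow 4 it was -0.36 ± 0.13 (n = 9, 95% interval -0.65 to -0.08, unadjusted p = 0.0175, adjusted p = 0.149 by limma), which misses the threshold. FST was lower late in 7 of 10 cows, and cow 4 had the largest change in the other direction, 2.81.

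TGFBR1, the type I receptor kinase, was dim: it passed background on 7 of 10 early and 5 of 10 late arrays. It was at -7.02 to -4.88 early (median -6.25) and at -7.02 to -6.19 late (median -6.62), with cow 5 highest early and overlapping groups. The change was -0.40 ± 0.17 (SE, n = 10, unadjusted p = 0.0354, adjusted p = 0.192 by limma), lower late in 8 of 10 cows. With normexp background correction it was -0.13 ± 0.07 (SE, limma unadjusted p = 0.0802, adjusted p = 0.283). That correction added an offset of 50, which shrinks the changes of dim probes. A second TGFBR1 probe, starting 91 bases away, had -0.20 ± 0.13 (adjusted p = 0.369 in the fit of each probe on its own).

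TGFBR2, the type II receptor that binds TGF-beta first, came closest to the threshold. It was at 1.42 to 2.72 early (median 1.67) and at 1.03 to 1.71 late (median 1.32). Cow 9 stood apart early at 2.72, the other early arrays ending at 1.87, and 8 of 10 cows were lower late, a count that 13.7% of all genes reached or passed. The change was -0.38 ± 0.12 (SE, n = 10, 95% interval -0.64 to -0.13), 1.31-fold lower late, with unadjusted p = 0.00663 and adjusted p = 0.102 by limma. Without cow 9, which had the largest fall, it was -0.30 (adjusted p = 0.137). Without cow 4 it was -0.38 (adjusted p = 0.133), and with the mean of both probes -0.60 (adjusted p = 0.101).

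The second TGFBR2 probe, shown above and starting 4579 bases from the first, had a change of -0.81 ± 0.25 (SE, adjusted p = 0.103 in the limma fit of each probe on its own) and was lower late in 9 of 10 cows. Its early values ran from -5.70 in cow 2 to -3.34 in cow 9, and its largest change was that of cow 9, -2.89. Cow 5 was the 1 cow higher late with it, and was also higher late with the first probe.

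**Figure D2:**
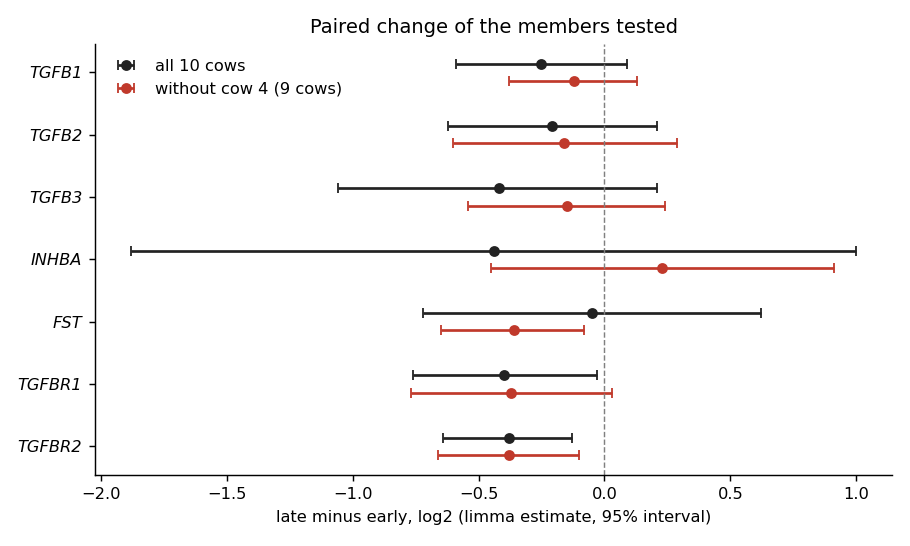
Late minus early log2 change of the 7 members tested (horizontal axis; points are limma estimates, bars 95% intervals), with all 10 cows in black and without cow 4 in red. The intervals of INHBA and FST shorten most without cow 4, INHBA turns from -0.44 to 0.23, and TGFBR2 is at -0.38 in both. Without cow 9, which is not drawn, TGFBR2 was at -0.30.

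Slide and period overlap in 1 slide only, so the member values were also set against slide. With slide as a further block the changes were 0.54 ± 0.67 for TGFB1 and 0.65 ± 1.05 for TGFB2 (SE). They were 1.98 ± 1.21 for TGFB3 and 4.22 ± 2.97 for INHBA. These values were opposite in sign to the paired ones, but each 95% interval included 0 (INHBA -2.75 to 11.19). Only slide 3 joins the periods in this fit, its intervals are wide, and its signs were not taken as a direction. In the same fit FST was at -1.34 ± 1.54, TGFBR1 at -0.78 ± 0.58 and TGFBR2 at -0.15 ± 0.43, each with an adjusted p of 1. Within slide 3, which holds the early arrays of cows 9 and 10 and the late arrays of cows 1 and 2, the unpaired difference was -0.43 for TGFB1, -0.39 for TGFB2, -1.12 for TGFB3, -0.62 for INHBA, 0.13 for FST, -0.22 for TGFBR1 and -1.05 for TGFBR2. The lowest adjusted p among these was 0.553, and the part of slide in the differences was not tested further.

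The early array of cow 4 was the highest early array for 4 of the 7 members tested (TGFB1, TGFB2, TGFB3 and INHBA) and the lowest for FST; over all genes it was highest in 26% and lowest in 25.3%. By the gap criterion 3 of the 7 members stood apart on it, TGFB1, INHBA and FST, beside 12.7% of all genes. In the wider pathway, listed below, 16 of 83 genes did so (19.3%), 8 high and 8 low. The high ones included BMP7, a ligand of the bone morphogenetic branch, at -1.15 against -4.89 to -3.24 on the other early arrays. THBS1, an extracellular activator of latent TGF-beta, was at 2.98 against -0.75 to 1.06, SMAD3 at -0.35 against -2.72 to -1.83, and TIMP1, an inhibitor of matrix metalloproteinases, at 3.29 against 0.40 to 1.79.

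Low ones on the same array included GDF10, a ligand related to BMP3, at -5.90 against -2.40 to -0.12, and INHA, the inhibin alpha subunit that pairs with the beta subunits, at -3.54 against -2.56 to -1.81. ACVR2B, a type II activin receptor, was at -3.96 against -2.83 to -2.29. Of 20 target genes of the pathway the early array of cow 4 was highest in 13 and lowest in 2. These genes were chosen for description after their values were seen. The summed level of the macrophage markers was also highest on that array, at 6.18, the others ending at 5.79, and the part of macrophages was not tested; its stromal markers summed to 8.58 and its epithelial markers to 6.14, both second highest of the 10. Summed markers of B and plasma cells (-0.21), mast cells (-0.27) and red blood cells (-2.24) were lowest on it. The early array of cow 9 stood apart for TGFBR2 and was next to cow 4 for INHBA and TGFB3. Among the early arrays it had the lowest epithelial sum (4.56) and the highest stromal (8.62) and smooth muscle (5.93) sums. The part of this mixture in its member values was not tested.

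**Figure D3:**
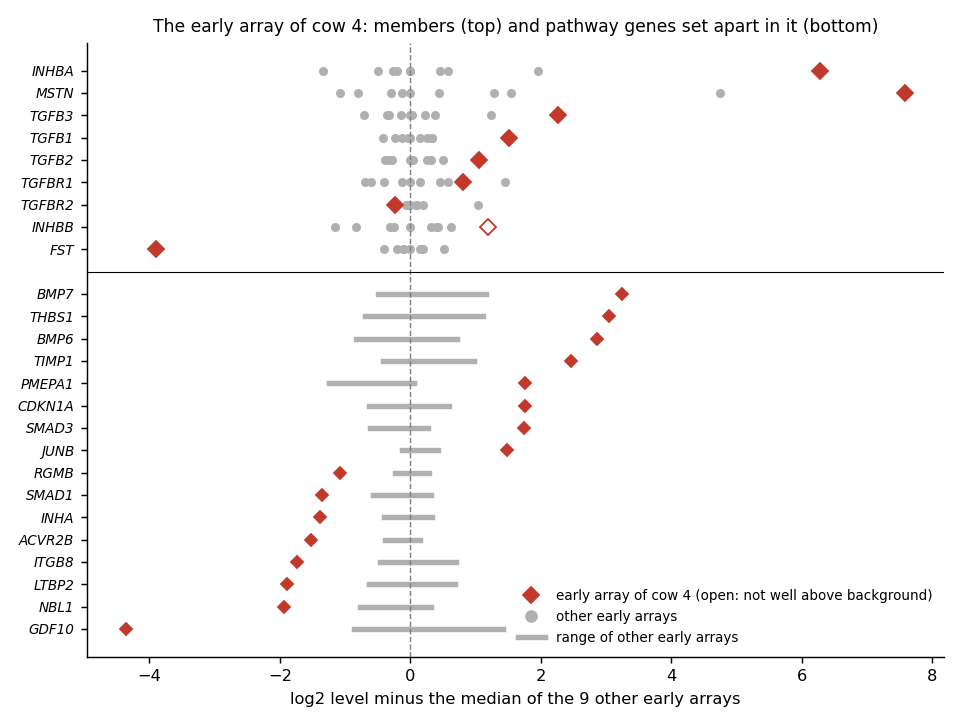
Log2 level on the early arrays minus the median of the 9 early arrays other than cow 4 (horizontal axis), for the 9 members (top; grey points are the other early arrays) and for the 16 pathway genes set apart on the early array of cow 4 (bottom; grey bars are the range of the other early arrays). Red diamonds mark cow 4, with INHBA at 6.28 and FST at -3.90.

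The other genes of the superfamily and its pathway were taken from 5 lists, in which BMP1, LTBP2, PMEPA1 and SMAD7 stand in 2 lists each. Of 83 genes tested, 1 passed the threshold, against 1.31% of all genes, 56 estimates (67.5%) were below 0, against 47.1%, and the median change was -0.16. At an unadjusted p under 0.05 there were 19 (22.9%), near the 22.6% of all genes. Among superfamily ligands 13 of 26 were tested, and BMP4, a ligand of the bone morphogenetic branch, fell by 0.52 on the log2 scale. BMP4 was at 0.63 ± 0.32 early and 0.11 ± 0.32 late (SD, n = 10) and lower late in 10 of 10 cows (SE 0.11, limma adjusted p = 0.0463). In all genes, 0.777% fell past the threshold. Without cow 5 BMP4 still passed (adjusted p = 0.0471), but without any other single cow it did not (cow 4: adjusted p = 0.0709; at most 0.101). It was also lost in 8 of 15 other alternatives (adjusted p = 0.0535 to 1), with -0.14 under slide as a block and -0.86 within slide 3. The median of the 13 ligands was -0.18, and -0.07 without cow 9.

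Of 12 receptors and co-receptors tested (of 16), 0 passed and the median change was -0.02. BMPR1A, a type I receptor for bone morphogenetic proteins, had 0.34 ± 0.11 (SE, limma adjusted p = 0.108), higher late in 9 of 10 cows. TGFBR3, the co-receptor betaglycan that presents TGF-beta to TGFBR2, had -0.51 ± 0.18 (adjusted p = 0.144), lower late in 8 of 10. With the mean of its probes it was -0.13 (adjusted p = 0.586), and without cow 9 -0.34. With 0 called, 3 were at an unadjusted p under 0.05.

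Of 24 genes of latency, activation and extracellular inhibition tested (of 29), 0 passed, 18 estimates were below 0 and the median was -0.20; 8 were at an unadjusted p under 0.05. FSTL3, a follistatin relative that also binds activin, had -0.60 ± 0.15 (SE, limma adjusted p = 0.0714), lower late in 9 of 10 cows. NRROS, which anchors latent TGF-beta on myeloid cells, had -0.33 ± 0.10 (adjusted p = 0.0982), also lower late in 9 of 10. The lower macrophage markers given above stand beside this value, and their part in it was not tested.

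Of 16 SMADs and regulators tested (of 19), 0 passed, 1 was at an unadjusted p under 0.05 and the median was 0.01. SMAD3, the receptor-regulated SMAD shared by TGF-beta and activin, had -0.51 ± 0.19 (SE, limma adjusted p = 0.156) and was lower late in 10 of 10 cows. Without cow 4 it was at -0.31 (adjusted p = 0.0586). ZFYVE9, which presents SMAD2 and SMAD3 to the receptor, had 0.46 ± 0.22 (adjusted p = 0.230), and 0.14 with the mean of its probes.

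Of 20 target genes tested (of 21), 0 passed, 15 estimates were below 0, 4 were at an unadjusted p under 0.05 and the median was -0.20. It was -0.11 without cow 4 and 0.41, opposite in sign, with slide as a block. FN1, which encodes fibronectin, had -0.74 ± 0.19 (SE, limma adjusted p = 0.0735), lower late in 9 of 10 cows. TGFBI, a matrix protein named for its induction by TGF-beta, had -1.01 ± 0.35 (adjusted p = 0.131), lower late in 8 of 10, and -0.73 without cow 4. COL1A1 and COL3A1 belong both to this list and to the stromal markers, whose lower estimates are given above; their part in the list was not tested.

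**Figure D4:**
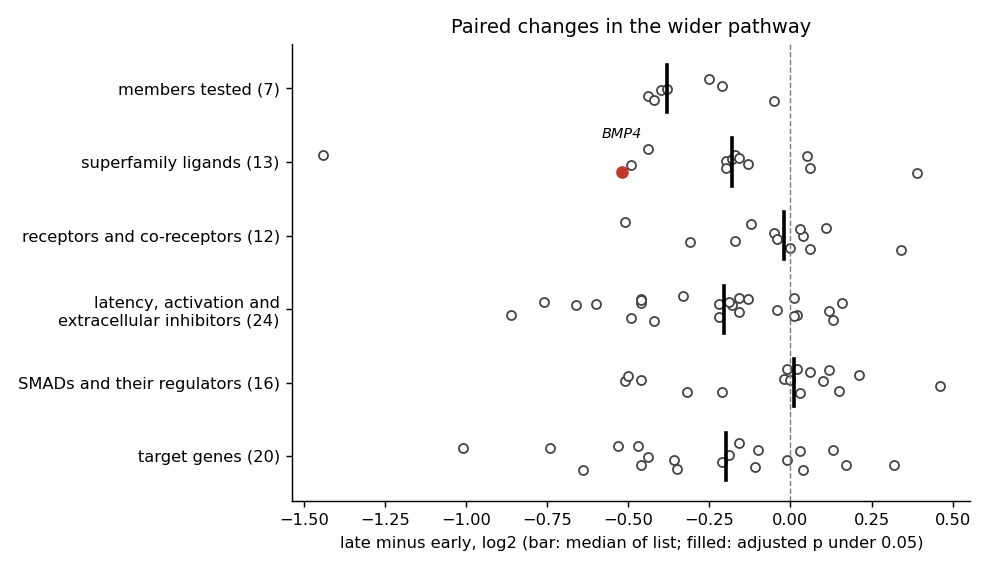
Late minus early log2 change (horizontal axis) of each gene tested in the member list and in the 5 lists of other pathway genes; bars are list medians, filled symbols have an adjusted p under 0.05, and the number tested is in brackets. BMP4 is the 1 filled symbol, and the list medians run from -0.38 for the members to 0.01 for the SMADs.

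How the members varied together was taken from the changes of the 10 cows, in 21 pairs of the 7 members tested. By Pearson correlation 2 pairs passed after adjustment over the 21 (permutation test, 100000 resamples, two-sided), and by Spearman correlation 0. TGFB1 and TGFB3 had r = 0.90 (permutation p = 0.00072, adjusted p = 0.014) and rho = 0.81 (permutation p = 0.00747, adjusted p = 0.157). Without cows 4 and 9, the farthest from the median change of TGFB1, r was 0.59. TGFB3 and INHBA had r = 0.93 (permutation p = 0.00133, adjusted p = 0.014) and rho = 0.64 (permutation p = 0.054, adjusted p = 0.315), and r was 0.50 without cows 4 and 6. Neither pair passed without cow 4, when r was 0.75 and 0.74, and 0 of 21 pairs did. Both calls were also lost without cow 9 (permutation, adjusted p = 0.0911 each), and that of TGFB3 and INHBA without cow 6 (adjusted p = 0.0868). The calls therefore rest on these cows, while r of the changes kept its sign when a cow was left out. Within a period, r of the levels of TGFB1 and TGFB3 was 0.84 early and -0.07 late. For TGFB3 and INHBA it was 0.93 early and 0.30 late. At an unadjusted permutation p under 0.05 there were 4 pairs with all cows and 7 without cow 4. Without that cow r was 0.83 for TGFBR2 and INHBA, 0.81 for TGFB1 and TGFBR2 and 0.80 for TGFB3 and TGFBR2, against 0.37, 0.55 and 0.45 with it. These pairs were the highest of the 21 without cow 4. Without cows 4 and 9, r of TGFB1 and TGFBR2 was 0.57. For TGFB3 and TGFBR2 it was 0.75 without cows 4 and 6, and for TGFBR2 and INHBA 0.35 without cows 5 and 9.

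INHBA and FST, the activin subunit and its antagonist, had r = -0.79 (permutation p = 0.0864, adjusted p = 0.235) but rho = 0.19 (permutation p = 0.607, adjusted p = 0.797). Without cow 4 r was 0.40, and without cows 4 and 6 it was 0.71. Within a period, r of the levels was -0.04 among the 9 other early arrays and 0.69 among the late arrays. The negative value thus rests on cow 4, whose INHBA went from 5.47 to -0.98 while FST went from -0.12 to 2.69.

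**Figure D5:**
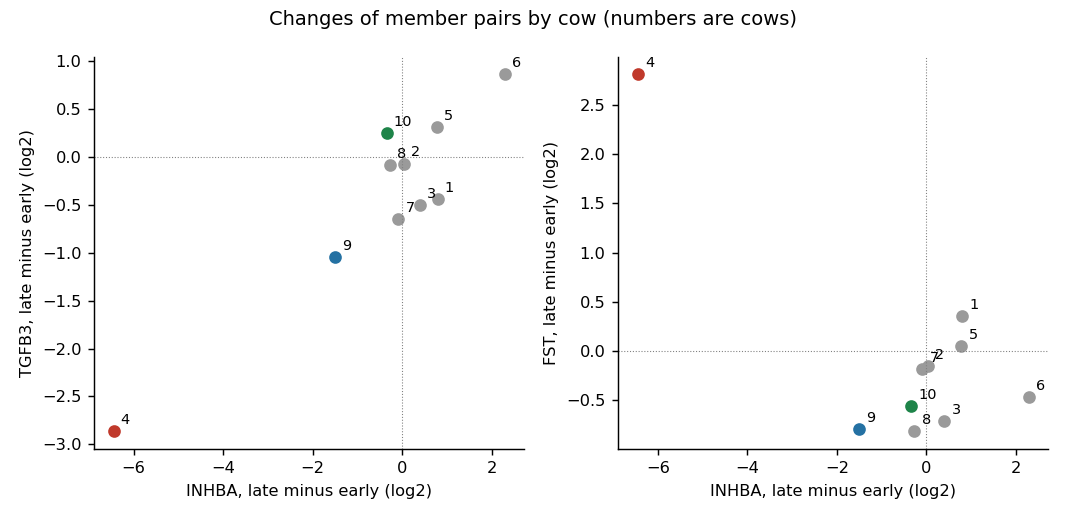
Late minus early log2 change of TGFB3 (left) and FST (right) against that of INHBA, 1 point per cow with the number of the cow. Cow 4 lies far from the other 9 in both panels, at -6.45 for INHBA with -2.86 for TGFB3 and 2.81 for FST.

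The genes most like each member over the 20 arrays, after the mean of each period was removed, are given by Pearson r as a description; the points share arrays and depth. INHBA was closest to AY999164 (r = 0.99, 0.96 without the early array of cow 4), to TC328492 (0.97 and 0.83) and to NPY1R, a neuropeptide receptor gene (0.96 and 0.78). The first and second of these are transcript names of the array, and both have probes past the first INHBA probe on the same strand of chromosome 4. Whether they are transcripts separate from INHBA was not tested. The TC328492 probe lies 339 bases beyond the first INHBA probe, at chr4:82147721-82147780, and the AY999164 probe 4434 bases beyond it, at chr4:82151816-82151875. The latter holds AATAAA, in capitals in a 30-base stretch of it.
AY999164: tgtttggccttatgttaAATAAAaagacct
On the early array of cow 4 the AY999164 probe was at 4.32 against -3.52 to -0.33 on the other early arrays.

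FST was closest to TC313213 (r = 0.99, 0.95 without the early array of cow 4), whose probe lies 830 bases away on the same strand at chr20:27296287-27296346. It was at -0.51 on the early array of cow 4 against 3.03 to 3.97 on the others. The next were ENSBTAT00000026519 (0.94 and 0.81) and MAMDC2 (0.94, but 0.50 without that array). For TGFB1 the closest were TAX1BP3 (0.94, and 0.84 without the early array of cow 4), SLC66A2 (0.93 and 0.84) and BMP7 (0.93 and 0.79). Without that array they ranked 58, 52 and 194, and NSD1 was closest (0.91). For TGFB3 they were PLOD2, a collagen-modifying lysyl hydroxylase (0.90 and 0.78), RBMS1 (0.90 and 0.81) and DNMT3L (0.90 and 0.76), and without that array SRPX2 (0.84). TGFB2 was closest to PKIG (0.83), RASD1 (0.80) and NET1 (0.79), TGFBR1 to FGF18 (0.73) and TMEM183A (0.69), and TGFBR2 to the transcripts TC317602 (0.89), DV777210 (0.88) and DN288658 (0.87).

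The day of sampling within a period was also fitted. Across the early days 0 of 7 members had a slope past the threshold, as did 0% of 19445 genes, and 0 members were at an unadjusted p under 0.05 beside 5.66% of all genes. The smallest p was that of TGFB1, with -0.20 ± 0.11 per 10 days (SE, n = 10, limma unadjusted p = 0.101, adjusted p = 0.926). For FST the early slope was 0.14 per 10 days with all cows and -0.14 without cow 4 (limma unadjusted p = 0.0337, adjusted p = 0.870). Across the late days the slopes of the 7 members lay between -0.06 and 0.03 per 10 days, again with 0 past the threshold and 0 at an unadjusted p under 0.05, beside 0% and 1.38% of all genes.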

How the data were processed

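Endometrial RNA of 20 biopsies (10 cows, 2 periods) was labelled with Cy3 and hybridised to 1-colour arrays, per the labels' protocols. The scanner files come from Agilent Feature Extraction 10.5.1.1, per the submitters' processing notes. The deposited intensity values are processed signals, background-subtracted per the file headers. The series' deposited table holds log2 values. Set against the scanner values of 43293 probes it had a correlation of 1.0 or close to it on every array, after centring each probe on its median over arrays; column medians were -0.155 to 0.051.

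The values used here are log2 of that signal, less the 75th percentile of the array, without control spots and outlier flags. Of 43653 probes, 33764 were well above background on at least 8 of 20 arrays, and the probe of highest mean represented a gene (19445 genes, 208 with a missing value). Names came from the array, updated through RefSeq (ARS-UCD2.0, names only): 20579 probes by accession, 10745 by symbol, 376 by synonym, 1408 by gene number, while 10529 kept the array's name. Late and early were compared with limma 3.58.1 (R 4.3.3; lmFit and eBayes, cow as a fixed block, two-sided, Benjamini-Hochberg, threshold 0.05). The scripts were tested on simulated data.

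The pairing comes from the design text, the titles and the animal numbers; the late samples' source names number the cows differently, which the labels do not resolve. After removal of the period means, the correlation between both arrays of a cow was -0.11 to 0.76 (median 0.42; 8 of 10 above 0.1), and between different cows it had a median of -0.03. Members and lists were chosen with earlier results of these data known. Named were all members, in each list the genes past the threshold (up to 4) or the 2 of smallest p, and the 3 genes most correlated with each member, of which 1 is not reported here. Other pathway genes described on the early array of cow 4, and the genes closest without it, were chosen after their values were seen. The alternatives are given with the closing observations; the one without the early array of cow 4 was added after seeing the data.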

Additional observations from a re-analysis of the deposited data

Results flagged for a closer look

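In 50 groups of 10 arrays, 32 of member probes and 18 of other named genes, the highest or lowest array was set against the others by Dixon's criterion; chance flags about 1 in 20 groups. An array stood apart in 9 groups (18%). These were 7 of 25 early groups, beside 20.7% of all genes early, and 2 late groups, beside 9.37% of all genes late. Of the 9, 5 were the early array of cow 4: TGFB1 at -2.99, INHBA at 5.47 and, with its second probe, at 1.36, FST at -0.12, and SMAD3 at -0.35. On the late array of cow 4 MSTN was at -5.22. Early cow 9 had TGFBR2 at 2.72 and early cow 2 had the second TGFBR2 probe at -5.70, the lowest of that group. The late array of cow 3 had NRROS at -0.57 against -2.07 to -1.43 on the other late arrays. A further 8 genes or array transcripts are printed because they stood apart on the early array of cow 4 or lay near a member: BMP7 at -1.15, THBS1 at 2.98, TIMP1 at 3.29, GDF10 at -5.90, INHA at -3.54, ACVR2B at -3.96, AY999164 at 4.32 and TC313213 at -0.51. They are not among the 50 groups.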

How the results depend on the processing

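The count of members past the threshold was 0 under all 25 alternatives, and the lowest adjusted p of a member was 0.0722. Without the replicate block (cow left out of the model) 119 of all genes passed instead of 255, and 0 instead of 1 of the other pathway genes; the block changed no member call. With cow as a random effect 718 genes and 3 pathway genes passed, and with each probe on its own 3 pathway genes did. No filter gave 114 genes, slide as a random block 35, slide as a block 0 and slide 3 alone 0; the pathway count was 0 under these and under normexp, the mean of a gene's probes and without cows 4 and 9. Leaving out each cow gave 35 to 152 genes, 0 to 1 pathway genes and 0 to 2 member pairs. Slide as a block reversed TGFB1 (0.54), TGFB2 (0.65), TGFB3 (1.98), INHBA (4.22), FSTL3 (0.46), SMAD3 (0.52), TGFBI (0.47) and BMPR1A (-0.00). For the members among these the 95% intervals of that fit included 0, and only slide 3 joins the periods in it. INHBA was reversed without cows 4 and 9 (0.45), FST in slide 3 (0.13). Leaving out 1 cow gave -0.74 to 0.23 for INHBA, -0.36 to 0.04 for FST and -0.86 to 0.40 for the INHBA and FST correlation. The cause was not tested. Higher genes were 40.8% of the calls, against 53.7% with normexp, 51.6% with quantile normalization and 50.6% with median scaling. The number of arrays and the dim probes of INHBB, MSTN and TGFBR1 limit the precision.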
